A study of Mus musculus with 6 samples.

Results

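Oxidative phosphorylation is the step of respiration in which electrons from NADH and succinate pass along protein complexes of the inner mitochondrial membrane and drive ATP synthesis. Complex I takes electrons from NADH, complex II from succinate, complex III hands them to cytochrome c, complex IV passes them to oxygen, and complex V uses the resulting proton gradient to make ATP. Most subunits are encoded in the nucleus, translated in the cytosol and imported, and they assemble with a small mitochondrially encoded core that was not analysed here. Neurons depend on this pathway for much of their ATP, which migrating interneurons also spend on cytoskeletal work.

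The RNA levels of 59 nuclear-encoded subunits were followed in sorted cells of the GABAergic lineage of the mouse embryo. The members came from a fixed list of gene symbols, all 59 of which were found among the 29606 loci of the expression table. They comprised 31 subunits of complex I, 4 of complex II, 6 of complex III, 9 of complex IV and 9 of complex V. Ndufa4, a protein first assigned to complex I, was counted with complex IV, where later structural work places it. Atp5d lay on a locus that also carries Midn, and Atp5e on one that also carries Slmo2, so both values can hold fragments of the neighbor. Cox7a2 was on more than 1 locus, and the one on the annotated strand was taken.

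Cells were sorted by FACS from the ganglionic eminences (GEs) of E13.5 embryos, from 3 WT and 3 CCP1 cKO samples. The genotype was CCP1 Wt/Wt in WT and CCP1 lox/lox in CCP1 cKO, both with the Dlx5,6 CRE GFP transgene, and the labels give the strain as MF1. Cre recombinase, active in the Dlx5/6 lineage of GABAergic cells, removes exons 20 and 21 of Agtpbp1, the gene of the deglutamylase CCP1, so cells outside that lineage keep the allele. The labels number the replicates without saying whether a library holds 1 embryo, and the spread between libraries can include technical differences. The authors' table gives FPKM, fragment counts scaled to transcript length and to the fragments mapped, for each library. FPKM corrects for transcript length, so levels of different genes can be set beside each other as far as the length model holds.

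Agtpbp1, the targeted gene, had 18.1 to 20.01 FPKM in the WT libraries and 9.56 to 10.1 FPKM with CCP1 removed. All 8 markers of the GABAergic lineage were expressed, with a summed level of 794.2 to 891.3 FPKM in WT and 831.6 to 924.0 in CCP1 cKO. All 6 endothelial, all 6 microglial and all 6 pericyte and meningeal markers were below 1 FPKM in the mean. Cortical excitatory markers summed to 8.93 to 37.2 FPKM in WT, with the highest sum in WT replicate 2, and to 13.7 to 28.3 FPKM in CCP1 cKO. Red blood cell markers summed to 26.5 to 43.9 FPKM in WT, again highest in WT replicate 2, and to 16.5 to 41.1 FPKM in CCP1 cKO. The 6 progenitor markers summed to 570.7 to 628.1 FPKM in WT and to 534.8 to 609.6 FPKM in CCP1 cKO. The levels are thus those of a mixture that includes progenitors, not of migrating interneurons alone. Absolute depth is unknown from FPKM. Relative depth, read from the steps of values below 0.1 FPKM, lay between 0.73 and 1.14 of CCP1 cKO replicate 1 and was 0.90 in WT replicate 2. These are rough readings, since the window of ratios that gave them held 29.4% to 33.3% of the low loci compared. WT replicate 2 stood apart from the other libraries in the FPKM of the subunits, though less in their share of the summed FPKM. Where a log2 fold change of a single gene is printed below, it is given with and without that library. The same holds for the direction of the members and of the lists of further subunits, assembly factors, regulators, TCA cycle and glycolysis.

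The 59 subunits were among the more abundant transcripts of these cells. Their mean levels over the 6 libraries ran from 10.2 FPKM for Ndufa11 to 446.8 FPKM for Atp5b, a 43.8-fold range, with a median of 72.6 FPKM. Among the 13200 loci tested, whose mean level was 1 FPKM or more, the subunits lay at percentiles of level from 51.2 to 99.1, with a median of 93.3. Together they held 6438, 5260 and 6537 FPKM in the WT libraries, in the order of their replicate numbers, and 6748, 6210 and 6056 FPKM in the CCP1 cKO libraries. Values of single libraries are given in this order throughout. As a share of all FPKM in a library, the members held 1.19%, 1.12% and 1.46% in WT and 1.50%, 1.19% and 1.21% in CCP1 cKO. On that scale WT replicate 2 was lowest but lay near WT replicate 1 and CCP1 cKO replicates 2 and 3. The summed FPKM of a library ran from 447510 to 542953, and its 10 highest loci held 13.2% to 28.3%. The median level of the listed members was 54.8 FPKM in complex I, 57.5 FPKM in complex II and 71.5 FPKM in complex III. It was 162.0 FPKM in complex IV and 184.3 FPKM in complex V.

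**Figure D1:**
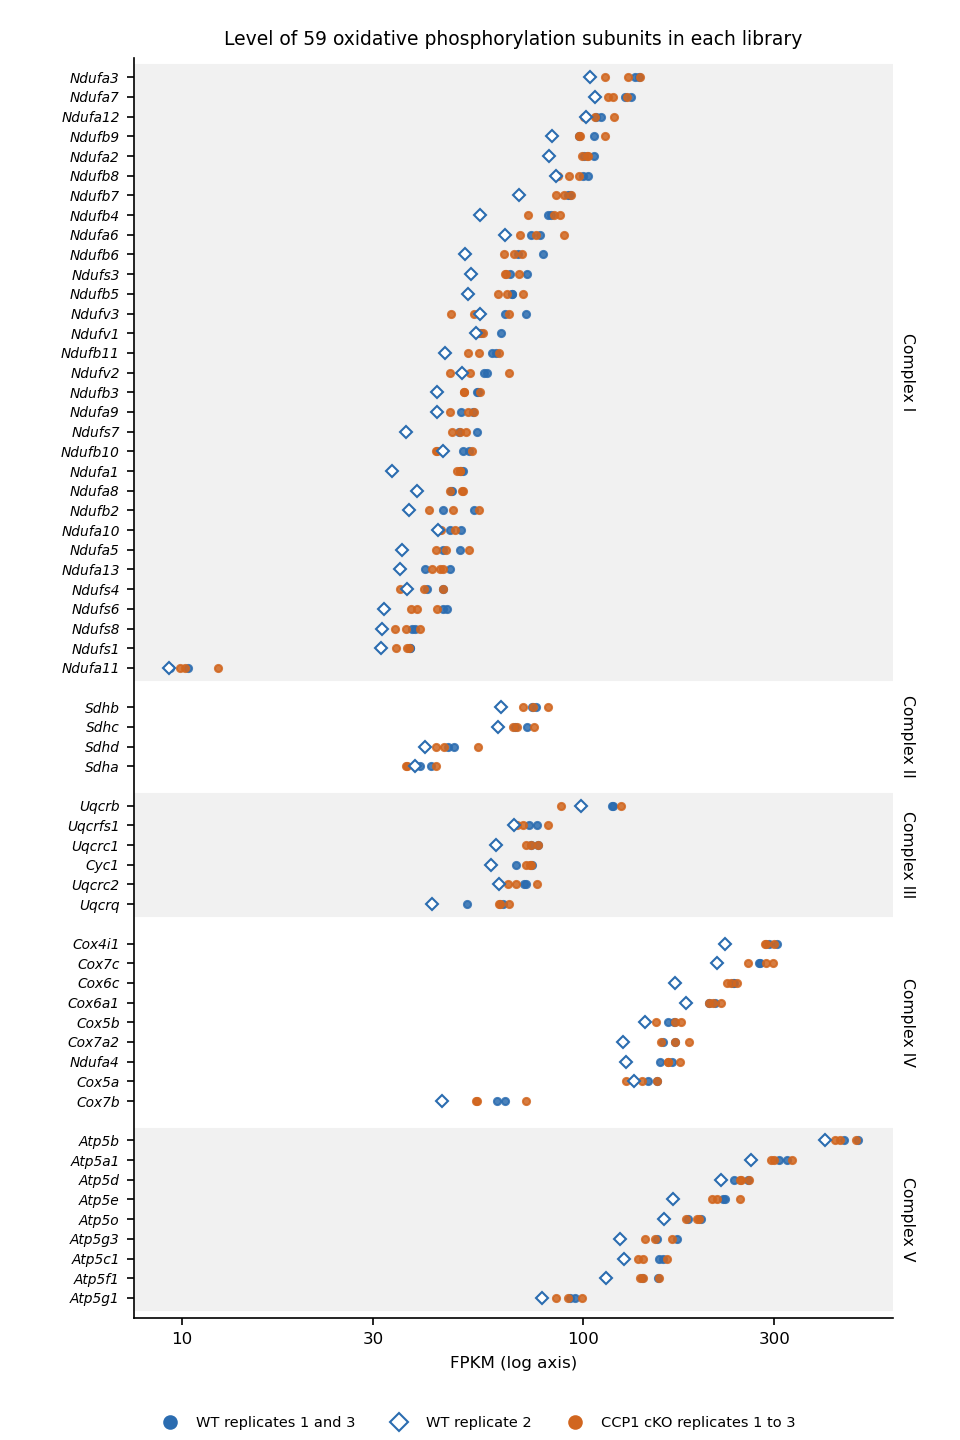
FPKM of each of the 59 subunits (log axis) in each library, grouped by complex and ordered by mean level, with blue dots for WT replicates 1 and 3, open diamonds for WT replicate 2 and orange dots for the 3 CCP1 cKO libraries. Ndufa11 lies near 10 FPKM and Atp5b above 400 FPKM, and the diamond is the lowest point of 51 of the 59 rows.

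Complex V held the most abundant member, and its catalytic head led the order. Atp5b (chr10:128083307-128090388 in mm10), the catalytic beta subunit of the F1 head, had 447.8, 402.4 and 486.2 FPKM in WT and 480.7, 437.9 and 426.1 in CCP1 cKO. Atp5a1, the alpha subunit that alternates with beta in the head, had 308.0, 262.7 and 322.4 FPKM in WT and 332.4, 299.99 and 294.4 in CCP1 cKO. For both genes the genotypes overlapped and WT replicate 2 was the lowest library. Atp5c1, the gamma subunit of the central stalk, had a mean of 146.6 FPKM, and Atp5d and Atp5e, the delta and epsilon subunits beside it, had 245.1 and 214.8 FPKM on their shared loci. Atp5o, which links the head to the peripheral stalk, had 184.3 FPKM. Atp5f1, the b subunit of the peripheral stalk, had 140.0, 113.9 and 154.1 FPKM in WT and 154.4, 138.7 and 141.4 in CCP1 cKO. The lowest member was Atp5g1, 1 of the genes for the c subunit of the membrane ring, at 90.7 FPKM in the mean and 78.9 to 99.4 FPKM across libraries. Per assembled enzyme the head holds more alpha and beta than gamma subunits, and at the RNA level the ratio of Atp5b to Atp5c1 was 2.90 to 3.18 across the libraries. Alpha and beta are present in equal number in the enzyme, and the ratio of Atp5b to Atp5a1 was 1.45 to 1.53.

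Complex IV was led by Cox4i1 and Cox7c. Cox4i1, the ubiquitous form of subunit 4, had 304.0, 226.6 and 291.7 FPKM in WT and 299.4, 285.4 and 285.1 in CCP1 cKO. Cox7c, a small membrane subunit, had 275.4, 216.3 and 277.1 FPKM in WT and 297.6, 257.5 and 285.7 in CCP1 cKO. WT replicate 2 was below the other 5 libraries for both genes. Cox6c followed at 225.0 FPKM in the mean, Cox6a1 at 206.8 FPKM, Cox5b at 162.0 FPKM, Cox7a2 at 160.7 FPKM and Ndufa4 at 158.5 FPKM. Cox5a, which like Cox5b faces the mitochondrial matrix, had 145.3, 134.4 and 153.0 FPKM in WT and 152.7, 140.0 and 127.8 in CCP1 cKO. The ratio of Cox5a to Cox5b stayed between 0.824 and 0.941 in the 6 libraries. Cox7b was the lowest member, with 64.0, 44.5 and 60.9 FPKM in WT and 72.2, 54.6 and 54.2 in CCP1 cKO.

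Complex I, the largest of the complexes, had members spread over a 12.4-fold range of level. The highest were Ndufa3 and Ndufa7, both accessory subunits, with means of 126.3 and 121.6 FPKM. Ndufa3 had 137.9, 104.0 and 134.8 FPKM in WT and 129.4, 138.6 and 113.2 in CCP1 cKO, and Ndufa7 ranged from 107.2 FPKM in WT replicate 2 to 132.1 FPKM in WT replicate 3. The subunits that carry out electron transfer were not at the top of the order. Ndufv1, which binds the flavin that accepts electrons from NADH, had a mean of 56.4 FPKM, and its neighbor Ndufv2, an iron-sulfur protein, 54.8 FPKM. Of the other iron-sulfur and quinone-site subunits, Ndufs1 had 35.5 FPKM, Ndufs8 36.1 FPKM, Ndufs7 47.8 FPKM and Ndufs3 64.7 FPKM. Ndufs1, the second lowest member, had 37.1, 31.3 and 37.1 FPKM in WT and 36.9, 34.2 and 36.4 in CCP1 cKO, a narrow band below which WT replicate 2 fell. The lowest of all 59 members was Ndufa11 (chr17:56717732-56725830), an accessory membrane subunit, with 9.34, 9.28 and 10.4 FPKM in WT and 12.3, 9.87 and 10.2 in CCP1 cKO. Its mean of 10.2 FPKM lay far below that of Ndufs1, the next in the order.

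In complex III, Uqcrb, a small accessory subunit, was highest, with 118.4, 99.2 and 118.7 FPKM in WT and 124.7, 98.3 and 88.0 in CCP1 cKO. The Rieske iron-sulfur protein Uqcrfs1 had 76.9, 67.4 and 73.5 FPKM in WT and 81.7, 68.6 and 70.8 in CCP1 cKO. The core proteins Uqcrc1 and Uqcrc2, which share ancestry with mitochondrial processing peptidases, had means of 72.6 and 69.2 FPKM, and their ratio lay between 0.985 and 1.11 in the 6 libraries. Cyc1, the cytochrome that passes electrons to soluble cytochrome c, had 70.3 FPKM. Uqcrq, a small subunit of the membrane part, was lowest at 57.7 FPKM in the mean.

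Complex II, the only complex of the pathway with no mitochondrially encoded subunit, was at 39.1 to 73.5 FPKM. Sdhb, its iron-sulfur protein, had 74.6, 62.4 and 76.5 FPKM in WT and 81.7, 75.1 and 70.9 in CCP1 cKO. Sdhc, a membrane anchor, had 67.9, 61.4 and 72.5 FPKM in WT and 75.5, 68.3 and 67.0 in CCP1 cKO, and the other anchor, Sdhd, had 46.2, 40.3 and 47.7 FPKM in WT and 54.8, 45.1 and 42.9 in CCP1 cKO. Sdha, the flavoprotein that oxidizes succinate, was lowest, with 39.1, 38.0 and 41.8 FPKM in WT and 43.1, 36.4 and 36.2 in CCP1 cKO. Sdha was below Sdhb in all 6 libraries, at a ratio of 0.485 to 0.610, although the enzyme holds them in equal number.

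Subunits of all complexes went up and down together from library to library. Complex I held 30.7% to 31.7% of the summed FPKM of the 59 members in each library, complex II 3.5% to 3.8%, complex III 7.0% to 7.5%, complex IV 26% to 27.4% and complex V 30.5% to 31.5%. The median SD of a subunit over the 6 libraries was 0.14 on the scale of log2(FPKM + 1), and it was 0.07 after the median of the members was taken out of each library. Over the 2518 tested loci with at least 30 FPKM the median SD was 0.11. The deviation from the mean of the 6 libraries, as a median over the members, was 0.06, -0.23 and 0.09 on the log2 scale for the WT libraries and 0.13, 0.00 and -0.04 for those of CCP1 cKO.

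WT replicate 2 was the lowest of the 6 libraries for 51 of the 59 subunits, against 24.7% of all 13200 loci tested. It was below both other WT libraries for 59 of 59. The level in WT replicate 2 was 82.1% of the mean of WT replicates 1 and 3 in the median subunit, from 67.1% for Ndufa1, a small accessory subunit of complex I, to 94.2% for Ndufa11. Ndufa1 had 49.5, 33.4 and 50.1 FPKM in WT and 49.4, 49.3 and 48.4 in CCP1 cKO, so that 5 libraries lay within a narrow band and WT replicate 2 lay below it. Ndufb4, another accessory subunit, had 83.0, 55.3 and 81.6 FPKM in WT and 87.8, 84.9 and 73.0 in CCP1 cKO. The 8 members that were lowest elsewhere were Ndufb10 and Ndufv3 in CCP1 cKO replicate 2 and Ndufa12, Ndufs4, Ndufv2, Sdha, Uqcrb and Cox5a in CCP1 cKO replicate 3. The highest library was CCP1 cKO replicate 1 for 35 of the 59 subunits. Neither this count nor the 59 of 59 was made over all loci. The median deviation in CCP1 cKO replicate 1 was 0.13 for the members, 0.14 for cytosolic ribosomal protein loci and 0.02 over all loci tested.

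**Figure D2:**
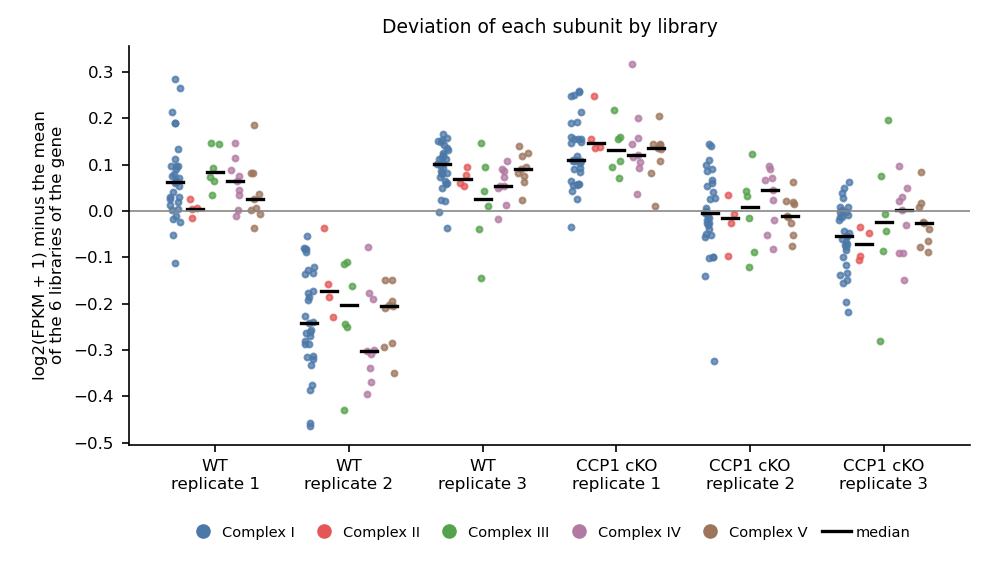
Deviation of log2(FPKM + 1) of each subunit from its mean over the 6 libraries, by library and colored by complex, with black bars for the median of each complex. In WT replicate 2 every point lies below 0 and the medians lie between -0.30 and -0.17, while CCP1 cKO replicate 1 has medians between 0.11 and 0.15.

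The shift of WT replicate 2 was shared by other short transcripts. The median length of the coding transcripts of a subunit, in GENCODE M21, had a median of 861 bases over the members, from 382 bases for Ndufa6 to 2900 bases for Sdha, and 28 of the 59 members were under 800 bases. Over the named loci tested, of which 85.9% had a length, the median was 2827 bases. Among named loci with at least 30 FPKM, the median deviation in WT replicate 2 was -0.24 on the log2 scale below 800 bases (235 loci), -0.17 from there to below 1200 bases (226 loci), -0.14 from 1200 to below 2000 bases (454 loci), -0.06 from 2000 to below 4000 bases (845 loci) and 0.07 from 4000 bases on (446 loci). Cytosolic ribosomal protein genes, which are also short and abundant, deviated by -0.22 in that library, and 71 of 74 were lowest there. The members' -0.23 lay between the values of the classes below 800 bases and from there to below 1200 bases, the latter holding their median length. The classes include the members themselves and can include ribosomal protein loci, so they are not a separate comparison. In CCP1 cKO replicate 1 the same classes ran the other way, from 0.15 below 800 bases to 0.00 from 4000 bases on, with the members at 0.13. WT replicate 2 also had the highest sums of cortical excitatory and red blood cell markers given above. It was highest as well for endothelial, microglial, and pericyte and meningeal markers, each at no more than 1.86 FPKM in sum. Cortical excitatory markers were raised nearly as much in WT replicate 1, with median deviations of 0.51 there and 0.52 in WT replicate 2. For the red blood cell loci tested, the median deviation was 0.49 in CCP1 cKO replicate 1 and 0.39 in WT replicate 2. Any part of such cells in the shift was not tested. RNA quality of the libraries was not analysed here. In bulk libraries fewer cells of a type and less RNA per cell cannot be told apart.

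**Figure D3:**
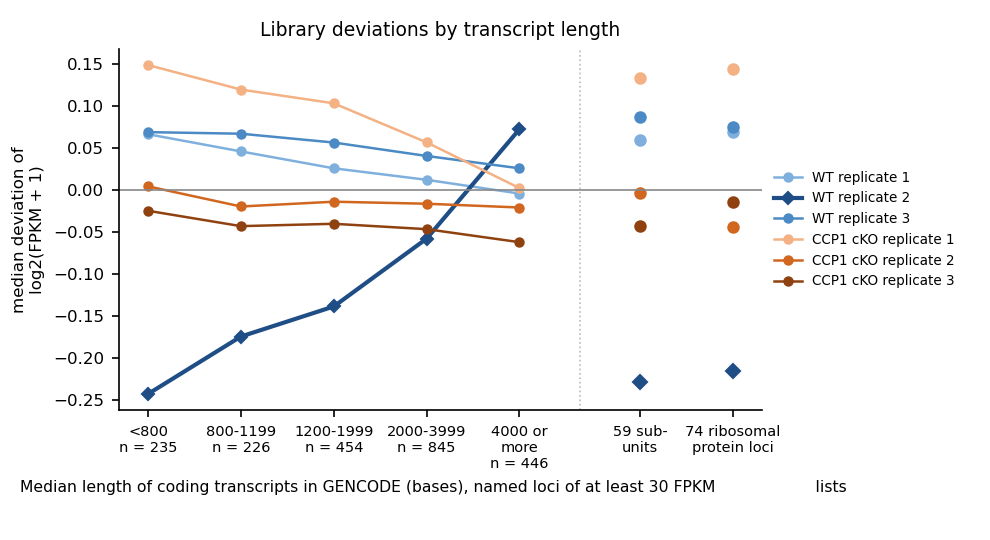
Median deviation of log2(FPKM + 1) from the mean of the 6 libraries (y axis) for named loci of at least 30 FPKM in 5 classes of transcript length (x axis, lines), and for the 59 subunits and 74 ribosomal protein loci (points at the right), with a color for each library. WT replicate 2 rises from -0.24 in the shortest class to 0.07 in the longest, and the subunits stand at -0.23 in that library.

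Whether loss of CCP1 in the sorted cells goes with a change in the RNA of the respiratory chain was asked with limma on log2(FPKM + 1). No subunit was detected as changed. Of the 59 members, 0 passed an adjusted p of 0.05, against 0.0909% of all loci tested, and 0 had an unadjusted p under 0.05, against 4.62% of all loci. The libraries of the genotypes overlapped for every member, while 3.98% of all loci were higher and 5.81% lower in CCP1 cKO without overlap. The summed level of the members averaged 6078 ± 410.3 FPKM over the WT libraries and 6338 ± 209.8 FPKM over those of CCP1 cKO (± SEM, n = 3 each). The 95% intervals of the 59 log2 fold changes lay between -0.55 and 0.61, and a p above the threshold does not show that the genotypes were equal.

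Log2 fold changes ran from -0.21 for Ndufv3 to 0.28 for Uqcrq. Uqcrq (chr11:53428948-53430831) had 63.3, 42.1 and 51.5 FPKM in WT and 61.6, 62.2 and 65.5 in CCP1 cKO, so the CCP1 cKO libraries lay within 61.6 to 65.5 FPKM while WT spread below and into that range. Its log2 fold change of 0.28 (95% interval -0.04 to 0.61, limma, adjusted p = 0.976; two-sided exact permutation test, p = 0.3) was 0.14 without WT replicate 2. Ndufv3 (chr17:31520115-31531325), an accessory subunit of the NADH-oxidizing module, had 72.0, 55.4 and 64.1 FPKM in WT and 65.4, 46.9 and 53.5 in CCP1 cKO. Its log2 fold change was -0.21 (95% interval -0.55 to 0.13, limma, adjusted p = 0.976; two-sided exact permutation test, p = 0.3) and -0.31 without WT replicate 2.

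Within complex I the largest positive log2 fold change was that of Ndufb4, at 0.18, which became -0.01 without WT replicate 2. Ndufa8, an accessory subunit that faces the intermembrane space, had the second smallest p of all members, with a log2 fold change of 0.15 (95% interval -0.06 to 0.37, limma, unadjusted p = 0.141) and of 0.06 without WT replicate 2. In complex II the log2 fold changes ran from -0.04 for Sdha to 0.10 for Sdhb, and in complex III from -0.12 for Uqcrb to Uqcrq. In complex IV they ran from -0.04 for Cox5a to 0.17 for Cox7a2, and in complex V from 0.00 for Atp5c1 to 0.13 for Atp5e. Without WT replicate 2, Sdhb, Cox7a2 and Atp5e had 0.00, 0.05 and -0.01, and Sdha, Uqcrb, Cox5a and Atp5c1 had -0.07, -0.21, -0.09 and -0.10. By exact permutation tests no member of the 28 named under the rule had a p below 0.3, where 3 against 3 libraries allow 0.1.

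The direction of the members as a whole turned when WT replicate 2 was left out. With all 6 libraries the median log2 fold change was 0.07, with 47 members higher and 12 lower in CCP1 cKO, beside a median of -0.02 over all loci tested. Without WT replicate 2 it was -0.03, with 15 higher and 44 lower, beside -0.02 over all loci. By complex, the median went from 0.04 to -0.05 in complex I, from 0.07 to 0.00 in complex II, from 0.06 to -0.03 in complex III, from 0.10 to -0.01 in complex IV and from 0.06 to -0.03 in complex V. In complex V all 9 members were higher in CCP1 cKO with the 6 libraries and 8 of 9 were lower without WT replicate 2. Over 74 cytosolic ribosomal protein loci the median likewise went from 0.05 to -0.04 without WT replicate 2. With CCP1 cKO replicate 1 left out instead, the median over the members was 0.02, with 34 higher and 25 lower.

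**Figure D4:**
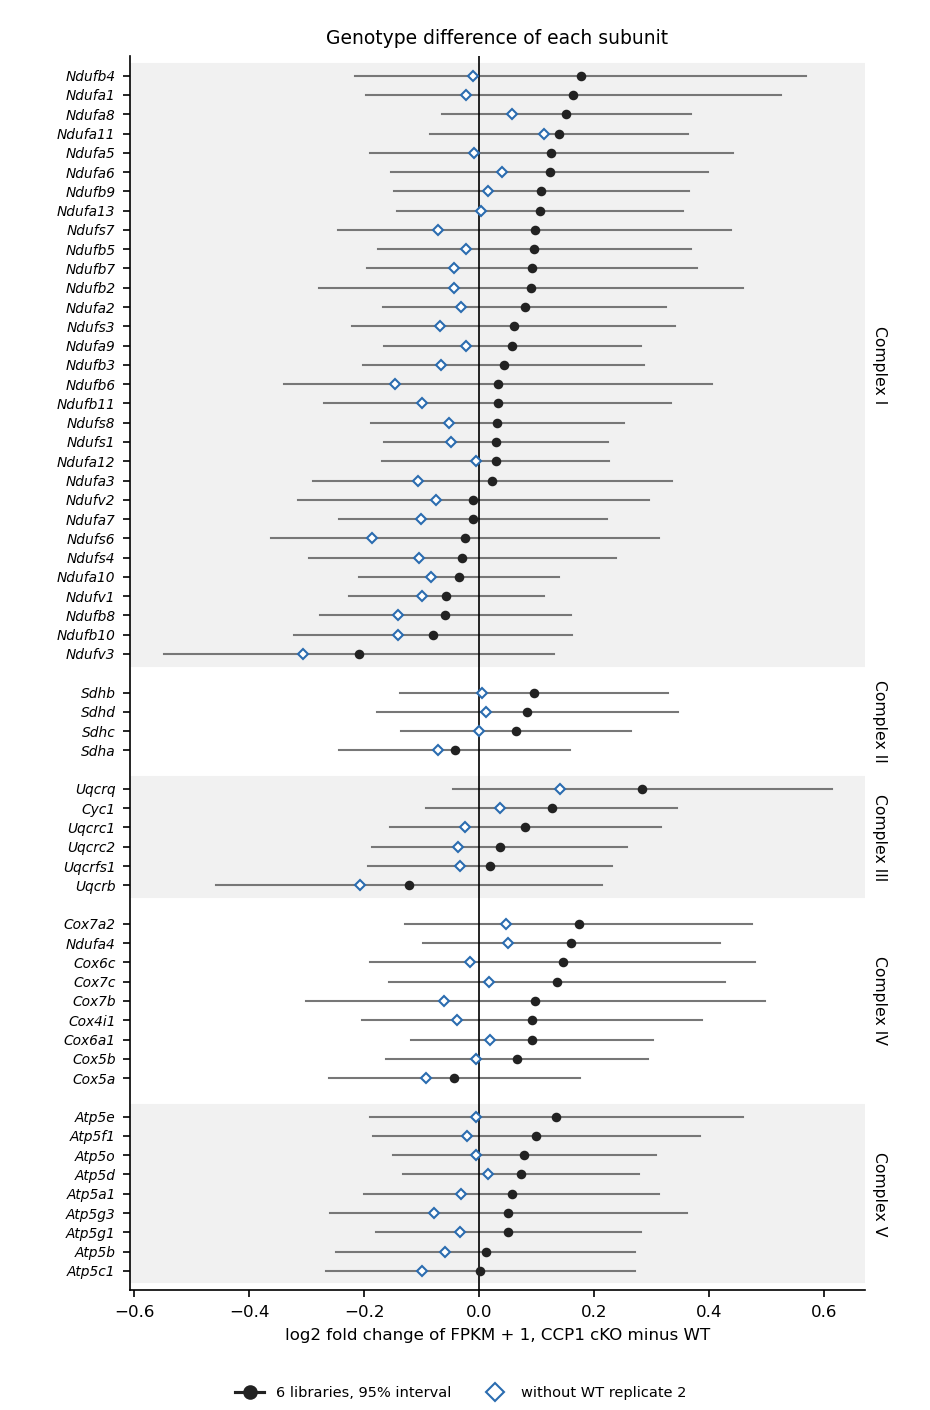
Log2 fold change of FPKM + 1 (CCP1 cKO minus WT) of each subunit by complex, with black dots and 95% intervals for all 6 libraries and open diamonds for the value without WT replicate 2. All 59 intervals cross 0, and the median moves from 0.07 to -0.03 between dots and diamonds.

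Several subunits exist in paralogous forms that differ between tissues, and each library was asked which form it held. In the pairs with a form known from muscle, lung, testis or hypoxic cells, the ubiquitous form was higher in 6 of 6 libraries. Cox4i1 had 226.6 to 304.0 FPKM, and Cox4i2, the form of lung that is tied to the response to low oxygen, was listed at 0 in 5 libraries and had 0.311 FPKM in CCP1 cKO replicate 2. Cox6a1 had 180.8 to 221.0 FPKM, and Cox6a2, the form of heart and skeletal muscle, was listed at 0 in all 6. Cox7a2 had 158.3, 125.9 and 170.0 FPKM in WT and 183.6, 169.9 and 156.2 in CCP1 cKO. Its partner Cox7a1, also a form of heart and skeletal muscle, had 1.54, 1.02 and 2.13 FPKM in WT and 0.440, 0.872 and 0.480 in CCP1 cKO, and the mean of Cox7a2 was 148.8 times that of Cox7a1. Ndufa4 had 166.4, 128.0 and 156.0 FPKM in WT and 174.5, 163.0 and 163.3 in CCP1 cKO, while Ndufa4l2, which is induced by low oxygen, had 0.123 to 0.340 FPKM.

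Partners outside the 59 showed the same order. Cox6b1 had a mean of 251.0 FPKM and the testis form Cox6b2 2.73 FPKM. Cox8a, whose locus also carries Otub1, had 329.8 FPKM, and the muscle form Cox8b was listed at 0 in 4 libraries and had at most 0.569 FPKM. On the scale of log2(FPKM + 1) the difference within a library was 6.33 ± 0.49 for Cox7a2 over Cox7a1 and 6.11 ± 0.35 for Cox6b1 over Cox6b2 (SD, n = 6; two-sided exact sign-flip permutation test, p = 0.0312, adjusted p = 0.0312 over 9 pairs, the smallest p that 6 libraries allow). The same p held for the other pairs, but no size is given for those whose second form was listed at 0, since the added 1 would set it.

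The c subunit of ATP synthase is made from 3 genes whose mature proteins are identical and whose import sequences differ. All 3 were expressed. Atp5g3 had 171.7, 123.6 and 153.3 FPKM in WT and 166.8, 143.1 and 151.7 in CCP1 cKO, and Atp5g1 had 92.8, 78.9 and 95.8 FPKM in WT and 99.4, 91.7 and 85.7 in CCP1 cKO. Atp5g2, which is not among the 59, was the highest of the 3 in every library, with 228.8 to 279.1 FPKM. The difference within a library was 0.73 ± 0.10 on the log2 scale for Atp5g3 over Atp5g1 and -1.51 ± 0.09 for Atp5g1 over Atp5g2 (SD, n = 6; two-sided exact sign-flip permutation test, p = 0.0312, in the same direction in 6 of 6 libraries). Atp5g3 lay below Atp5g2 by a log2 difference of -0.78 ± 0.11. The order of the c subunit genes was thus the same in both genotypes, and the ratio of Atp5g3 to Atp5g1 was 1.56 to 1.85. These genes are near-identical in part of their coding sequence, and the counting could split fragments between them.

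**Figure D5:**
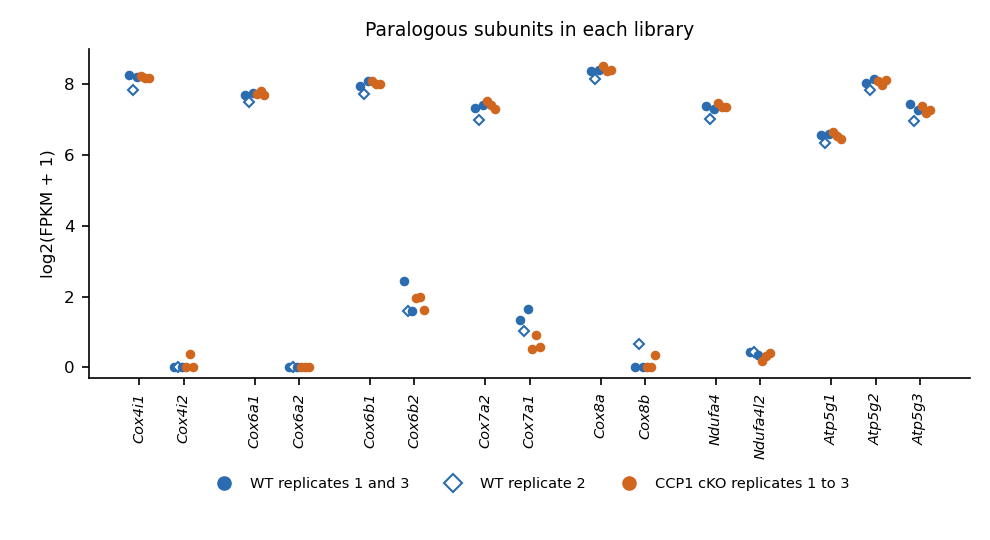
Log2(FPKM + 1) of paralogous subunits in each library, with the first form of each pair at the left, blue dots for WT replicates 1 and 3, open diamonds for WT replicate 2 and orange dots for CCP1 cKO. The forms known from other tissues lie below 2.5 on this scale while their partners lie near 7 or above, and the 3 genes of the c subunit keep 1 order in all 6 libraries.

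The remaining nuclear subunits and the genes that build and feed the chain were looked at beside the members. Of 20 further subunits and associated proteins, 0 passed an adjusted p of 0.05 by limma and 1 had an unadjusted p under 0.05, with 18 higher and 2 lower in CCP1 cKO, and 19 of the 20 were lowest in WT replicate 2. Their median log2 fold change turned from 0.10 to -0.02 without that library, with 8 higher and 12 lower. Usmg5, a small protein of the ATP synthase dimer, had a log2 fold change of 0.22 (limma, unadjusted p = 0.133) and of 0.10 without it. Of 9 tissue-restricted forms, 7 had means under 1 FPKM, and of the others Cox7a1 had a log2 fold change of -0.67 (limma, unadjusted p = 0.0171, adjusted p = 0.917) and Cox6b2 -0.02, which were -0.83 and -0.16 without WT replicate 2.

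Of 45 assembly factors, 0 passed by limma and 2 had an unadjusted p under 0.05, with 25 higher and 20 lower, and with 20 higher and 25 lower without WT replicate 2. These were Ttc19, a factor of complex III, with 11.02, 12.6 and 10.5 FPKM in WT and 9.84, 9.12 and 9.03 in CCP1 cKO (adjusted p = 0.917), and Coa5, a factor of complex IV, with 15.8, 14.5 and 14.4 FPKM in WT and 13.4, 12.1 and 12.8 in CCP1 cKO (adjusted p = 0.946), with log2 fold changes of -0.26 and -0.21, and of -0.19 and -0.23 without WT replicate 2. Of the 13 regulators of mitochondrial biogenesis, 11 were tested, of which 0 passed and 1 had an unadjusted p under 0.05, with 1 higher and 10 lower, and with 5 higher and 6 lower without WT replicate 2. This was Tfb2m, a transcription factor of mitochondrial DNA, with 8.36, 8.26 and 8.38 FPKM in WT and 7.23, 6.71 and 6.26 in CCP1 cKO (limma, log2 fold change -0.27, adjusted p = 0.642), and its log2 fold change was -0.28 without that library. Gabpb1, a subunit of the GABP factor, had a log2 fold change of -0.13 (limma, unadjusted p = 0.0848), with and without WT replicate 2. The coactivators Ppargc1a and Ppargc1b, named here after their values were seen, were not tested, with means of 0.652 and 0.0538 FPKM.

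Genes of the TCA cycle and of glycolysis, which feed the chain, were counted too, and the lists were not tested against each other or against all loci, of which 5729 were higher and 7471 lower in CCP1 cKO. Of 13 genes of the TCA cycle, 0 passed by limma and 0 had an unadjusted p under 0.05, with 7 higher and 6 lower, and with 5 higher and 8 lower without WT replicate 2. The smallest p belonged to Ogdh, of the 2-oxoglutarate dehydrogenase complex, with a log2 fold change of -0.13 (unadjusted p = 0.187), and to Suclg1, of succinyl-CoA synthetase, with 0.18 (unadjusted p = 0.210), which were -0.10 and 0.09 without that library. Of 16 glycolytic genes tested, 0 passed and 3 had an unadjusted p under 0.05, against 4.62% of all loci, with 14 higher and 2 lower, and 12 of 16 were lowest in WT replicate 2. Without that library 2 of the 16 had an unadjusted p under 0.05, 13 were higher and 3 lower, and the median log2 fold change was 0.03 in place of 0.09. Pkm, pyruvate kinase, had 286.6, 316.5 and 338.0 FPKM in WT and 415.0, 378.6 and 391.7 in CCP1 cKO (limma, log2 fold change 0.33, adjusted p = 0.815), and Pfkl, a phosphofructokinase, had a log2 fold change of 0.20 (adjusted p = 0.906). The 3rd was Ldha, a lactate dehydrogenase, which lies outside the rule for naming genes and was named after its values were seen (limma, log2 fold change 0.26, adjusted p = 0.960). Without WT replicate 2 the log2 fold changes of Pkm, Pfkl and Ldha were 0.34, 0.16 and 0.22.

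Nuclear genes of the respiratory chain are known targets of the transcription factors NRF1, GABP and YY1, and the promoters of the members were searched for these motifs. RefSeq promoters (GRCm38.p6, the build that mm10 names), 250 bases before to 50 bases after the start of a gene, were matched for 48 of the 59 members. Motifs were searched on both strands as CGCATGCG for NRF1, which reads the same on both, CCGGAAG for GABP and AAGATGGCG for YY1, and no motif contains another. NRF1 letters were present in 4 members (8.3%), against 2.07% of all 27025 promoters and 4.79% of those of 8343 genes tested here. GABP letters were present in 8 members (16.7%), against 9.93% of all and 20.82% of tested genes, and YY1 letters in 4 members (8.3%), against 1.64% and 3.75%. In all, 15 of the 48 held at least 1 of the motifs.

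The windows with NRF1 letters are shown because they belong to members of 3 complexes, with Ndufa11 at the lowest and Cox6a1 among the highest levels. Each is written 5′ to 3′ on the strand of the gene, with the motif in capitals and positions counted from the start of the gene.
Cox6a1 (positions -161 to -154, minus strand, chr5:115349086-115349145): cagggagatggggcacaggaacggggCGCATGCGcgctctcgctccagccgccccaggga
Ndufa11 (positions -59 to -52, plus strand, chr17:56717677-56717736): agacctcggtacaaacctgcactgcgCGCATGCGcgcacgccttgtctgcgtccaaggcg
Ndufa8 (positions -9 to -2, minus strand, chr2:36049339-36049398): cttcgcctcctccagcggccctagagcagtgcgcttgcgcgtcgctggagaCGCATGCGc
Uqcrc1 (positions 32 to 39, plus strand, chr9:108936668-108936697): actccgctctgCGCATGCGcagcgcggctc

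The YY1 letters stood downstream of the start in all 4 members that held them, and always on the strand of the gene. Each is a subunit of complex I, which supplies 31 of the 59 members. They began at positions 25 to 36, and the capitals mark the motif.
Ndufa9 (minus strand, chr6:126849096-126849125): attgtgggagAAGATGGCGgccgccgtccg
Ndufs4 (minus strand, chr13:114388045-114388074): gcgtttgcctacaggAAGATGGCGgcggtc
Ndufs6 (minus strand, chr13:73328433-73328462): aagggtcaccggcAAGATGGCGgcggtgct
Ndufs7 (plus strand, chr10:80249463-80249492): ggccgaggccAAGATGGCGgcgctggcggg

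GABP letters were present in Atp5e, Cox6a1, Ndufb6, Ndufb7, Ndufs3, Ndufs8, Sdhb and Sdhd, and Cox6a1 held both NRF1 and GABP letters. The windows of the complex II members are shown, with the motif or its reverse complement in capitals.
Sdhb (positions 7 to 13, plus strand, chr4:140961266-140961295): gctcggagaaaCCGGAAGcggccttccact
Sdhd (positions -46 to -40, minus strand, chr9:50603862-50603921): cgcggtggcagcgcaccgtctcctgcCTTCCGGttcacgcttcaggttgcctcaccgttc

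Levels of members with the same letters are given as values and were not compared with those of members without them. The members with NRF1 letters belong to several complexes and those with YY1 letters to complex I alone. Among those with NRF1 letters, Ndufa11 had 10.2 FPKM, Ndufa8 46.5 FPKM, Uqcrc1 72.6 FPKM and Cox6a1 206.8 FPKM in the mean. The members with YY1 letters had 40.2 FPKM for Ndufs6, 40.3 FPKM for Ndufs4, 47.8 FPKM for Ndufs7 and 49.6 FPKM for Ndufa9. The genes of the factors were measured too, with Nrf1 at 23.8 to 24.8 FPKM, Gabpa at 11.6 to 14.03 FPKM and Yy1 at 31.3 to 38.6 FPKM across the 6 libraries. A match of letters is a description of the sequence and was not tested for binding.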

How the data were processed

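RNA of FACS-sorted cells was depleted of ribosomal RNA, made into stranded libraries and sequenced paired-end. The authors aligned reads to mm10 with Bowtie2 in the Tuxedo workflow, and Cuffdiff gave the deposited FPKM per locus and library. The annotation and the versions of these programs are not given in the sources that were used. Further deposited tables hold the authors' own comparison (means per genotype, fold changes, p-values), also per isoform, and were not used.

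Members were matched by gene symbol. Loci whose mean over the 6 libraries reached 1 FPKM were compared with limma 3.58.1 in R 4.3.3 (lmFit, eBayes with a trend) on log2(FPKM + 1), which understates the change of low genes, with Benjamini-Hochberg adjustment over 13200 loci and a threshold of 0.05. On simulated data the procedure missed changes of about the size of the largest among the members, so changes that small could go undetected. Of the loci, 6074 (20.5%) carry no gene name and 524 more than 1. Overlapping or near-identical genes may share fragments, and FPKM cannot show it. Two-sided exact permutation tests were used for single members and exact sign-flip tests for isoform pairs. Genes were named by this rule: members with a p under 0.05, the 2 highest and 2 lowest members and the largest positive and negative fold change of each complex, members of isoform pairs, Agtpbp1, and the 2 genes with the smallest p of each other list. The last part was not applied to the lists of cell type markers and ribosomal proteins, of which no gene is named. Other members are named with a level or a fold change. A gene under this rule is not reported here. Transcript lengths are medians over the coding transcripts of GENCODE M21. Members and lists were chosen with earlier results of these data known. The 20 alternatives covered pseudocounts, filters, scalings, a replicate block, library weights and libraries left out. Columns were joined to samples by name. Relative depth came from ratios of values below 0.1 FPKM. A comparison of the proteins of the c subunit was planned and not run. Tables were handled in Python 3.11.15 (pandas 2.3.3, NumPy 2.4.6), exact tests drew on SciPy 1.17.1, and figures were drawn with Matplotlib 3.10.9.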

Additional observations from a re-analysis of the deposited data

How the results depend on the processing

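Under each of 20 alternatives 0 of the 59 subunits passed by limma, with a smallest adjusted p from 0.520 to 1. At an unadjusted p under 0.05 there was 1 subunit under 5 alternatives: Ndufv3 with the replicate block, with library weights and without CCP1 cKO replicate 1, and Uqcrq without WT replicate 1 and with replicate 1 of both genotypes left out. With single libraries left out, the median log2 fold change of the members ranged from -0.03 (without WT replicate 2) to 0.12 (without WT replicate 3). With library weights it was 0.00, with 28 members higher and 31 lower, and with quantile normalization 0.04. Rescaling to TPM gave 0.06. With the 2 members on shared loci left out it was 0.06.

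The labels tie replicates of the 2 genotypes by number alone and do not say whether those of the same number share a batch or litter. Deviations from the group means correlated by 0.32, 0.11 and 0.04 between libraries of the same number, and 0.32 was the highest of all pairs. WT replicates 2 and 3 correlated best with CCP1 cKO replicates of another number. With the replicate block the median log2 fold change was 0.07, 0 subunits passed, and 16 of all loci passed against 12 without it. Over all loci tested, 28 passed with TPM, 24 with library weights, 4 without CCP1 cKO replicate 3 and 1 with named loci only. FPKM hold no counts, so depth limits the low forms, listed at or near 0, in a way that was not measured.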
